A study of Homo sapiens with 30 samples.

Results

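Interleukin 1 beta and tumour necrosis factor were set directly against each other in human brain endothelial cells. The comparison took 6 of the series' 30 RNA sequencing libraries, 3 of cells given interleukin 1 beta (here IL1b) and 3 of cells given TNF alpha (here TNF), and covered the 15908 of 63138 genes that passed a filter on low counts. The cells were hCMEC/D3, an established endothelial line from human brain microvessels that is widely used to study the blood-brain barrier in culture. IL1b cells received interleukin 1 beta at 10 ng/mL and TNF cells received tumour necrosis factor at 25 ng/mL, each for 12 h. The 3 Control libraries came from cells kept in serum-free medium alone for the same time and give the baseline of each gene here. The cytokine and its dose cannot be told apart, since each cytokine was used at 1 dose and 1 time. The labels do not say that replicates were separate cultures, so p-values measure the spread between these libraries, which may be technical. Values are CPM, counts relative to library size, scaled between libraries by trimmed mean of M-values. A log2 difference is IL1b minus TNF unless another pair is named, its error is the standard error (SE), and adjusted p-values come from quasi-likelihood tests in edgeR, corrected over all genes tested by the Benjamini-Hochberg procedure.

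The 9 libraries held 17274481 to 22112326 counts each, and a count of 0 in a library allows about 3 counts. Of 12 brain endothelial markers 11 passed the filter and were detected in every library, among them CDH5, PECAM1 and VWF. The summed level of these markers was 1133 to 1173 CPM in Control, 1136 to 1180 in TNF and 881 to 908 in IL1b. None of 8 lymphocyte markers passed the filter, and the 10 myeloid markers summed to 3.5 to 4.11 CPM in Control, 1.7 to 2.55 in TNF and 2.37 to 3.75 in IL1b. The astrocyte marker GFAP (1.46 CPM in TNF and 3.99 in IL1b) was higher in IL1b, and the 1 other astrocyte marker tested was lower. The 7 astrocyte markers summed to 259 to 276 CPM in TNF and 232 to 237 in IL1b. The keratin KRT18 (152 CPM in TNF and 257 in IL1b) was higher in IL1b, with no EPCAM or CDH1 above the filter. The 2 other epithelial markers tested did not pass the test between IL1b and TNF. The 7 epithelial markers summed to 260 to 281 CPM in Control, 160 to 173 in TNF and 272 to 276 in IL1b. Of 11 pericyte and smooth muscle markers 8 passed the filter, 3 of them higher and 1 lower in IL1b than in TNF. The 11 summed to 388 to 443 CPM in Control, 476 to 497 in TNF and 354 to 370 in IL1b. Any part of such markers in the results was not tested. In bulk RNA, fewer cells of a type and less RNA per cell cannot be told apart. The 50 most abundant genes took 12.2% to 12.3% of counts in TNF, 10.8% to 10.9% in IL1b and 10.3% to 10.5% in Control.

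Both cytokines are made early in inflammation and both act on endothelium. Interleukin 1 beta binds IL1R1 with IL1RAP and signals through MYD88 and IRAK kinases, while tumour necrosis factor binds TNFRSF1A and TNFRSF1B and signals through TRADD, RIPK1 and TRAF2. Both routes activate NF-kappaB and MAP kinases, which switch on chemokines, adhesion molecules and their own feedback inhibitors. In endothelial cells tumour necrosis factor is also known to induce IRF1 and interferon beta, which feed the JAK and STAT pathway and the interferon-induced genes.

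The promoters of a few genes lower or higher in IL1b are shown first, since the motif counts that follow rest on such sequences. They are examples, and CXCL1, CXCL5 and CXCL6 are not among the 15 genes with the largest difference toward IL1b. Sequences are from RefSeq on GRCh38.p14, read 5′ to 3′ on the gene's strand and numbered from the RefSeq start, and capitals mark matches to the NF-kappaB consensus and to the interferon-stimulated response element (on either strand). The first group was lower in IL1b than in TNF. CXCL10 (chr4:76023498-76023747, minus strand) and VCAM1 (chr1:100719492-100719741, plus strand) are shown from -250 to -1, IFIT3 (chr10:89327837-89327891, plus strand) over its interferon elements and CXCL11 (chr4:76036127-76036156, minus strand) from -86 to -57.
CXCL10: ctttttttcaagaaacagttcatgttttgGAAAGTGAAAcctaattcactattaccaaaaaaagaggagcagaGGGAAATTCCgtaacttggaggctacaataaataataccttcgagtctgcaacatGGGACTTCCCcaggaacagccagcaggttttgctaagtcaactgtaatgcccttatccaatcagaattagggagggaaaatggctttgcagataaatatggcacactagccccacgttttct
VCAM1: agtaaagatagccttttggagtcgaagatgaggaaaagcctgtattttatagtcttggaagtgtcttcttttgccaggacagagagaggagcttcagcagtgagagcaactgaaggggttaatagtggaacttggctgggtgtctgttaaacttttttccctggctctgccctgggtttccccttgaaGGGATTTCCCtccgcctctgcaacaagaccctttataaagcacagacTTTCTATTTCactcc
IFIT3: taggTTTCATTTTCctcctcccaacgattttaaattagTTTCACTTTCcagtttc
CXCL11: gactcaaagaGGGAAATTCCtgtgccataa
The second group was higher in IL1b than in TNF. CXCL1 (chr4:73869143-73869392, plus strand) is shown from -250 to -1, and CXCL5 (chr4:73998748-73998777, minus strand) and CXCL6 (chr4:73836578-73836607, plus strand) from -100 to -71.
CXCL1: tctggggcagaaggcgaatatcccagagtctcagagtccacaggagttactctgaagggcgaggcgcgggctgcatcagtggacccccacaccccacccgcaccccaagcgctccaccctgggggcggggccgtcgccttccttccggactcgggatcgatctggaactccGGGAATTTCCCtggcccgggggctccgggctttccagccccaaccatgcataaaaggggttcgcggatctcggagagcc
CXCL5: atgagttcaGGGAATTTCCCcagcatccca
CXCL6: cctgagttcaGGGAATTTCCCcagcatccc

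CXCL10 held 2 NF-kappaB matches, at -177 to -168 and -122 to -113, and an interferon element at -221 to -212. VCAM1 had an NF-kappaB match at -62 to -53 and an interferon element at -15 to -6, and IFIT3 had interferon elements at -156 to -147 and -122 to -113 with no NF-kappaB match. CXCL1, CXCL5 and CXCL6 each held a pair of NF-kappaB matches 1 base apart on the same run of letters, and no interferon element in the 300 bases. In CXCL5 and CXCL6 that run overlaps a gamma-activated site (TTCNNNGAA). CXCL11, lower in IL1b, also held no interferon element in the 300 bases, with 1 NF-kappaB match and 2 gamma-activated sites. PTCH1, not shown and higher in IL1b by 2.13, held an interferon element at -29 to -20. A pair of NF-kappaB matches 1 base apart also stood in CXCL2, CXCL3, PTX3 and TNFRSF9. Their log2 differences were -0.61, -0.17, -0.93 and -3.81. The gene models of GENCODE 29 begin upstream of the RefSeq start used here for CXCL5, CXCL6, CXCL11 and IFIT3.

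Across the genes with a promoter in the table, 11239 of those tested matched by symbol. An interferon element stood in 2.95% of them, in 9.52% of the 483 promoters of genes lower in IL1b by more than 1 on the log2 scale and in 2.63% of the 190 promoters of genes higher by more than 1. The NF-kappaB consensus stood in 6.7%, 12.6% and 7.89% of the same promoters, and both motifs together in 0.187%, 1.66% and 0%. The AP-1 site (TGANTCA) stood in 4.74%, 8.28% and 8.42%. Of all 27305 promoters of this length in the table, 3.65% held the interferon element and 5.72% the NF-kappaB consensus. By list, the interferon element was found in 20 of 31 interferon-induced genes and 9 of 17 antigen presentation genes, and in 0 of 6 ELR-positive CXC chemokines, of which 5 held the NF-kappaB consensus. The NF-kappaB consensus also stood in 6 of 31 interferon-induced genes and 6 of 17 antigen presentation genes. It stood in 10 of 27 NF-kappaB subunit and feedback genes and 3 of 6 leukocyte adhesion genes. These are matches to letters, given as a description with no test.

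At 12 h the 2 cytokines separated widely, and the largest differences were toward TNF. Of 15908 genes, 6580 (41.4%) passed an adjusted p of 0.05, 3168 higher in IL1b (19.9%) and 3412 lower (21.4%), and 7663 (48.2%) had an unadjusted p under 0.05. With total-count scaling the split was 6504 higher and 2041 lower, a scaling that moved the median of all genes from 0.012 to 0.205 on the log2 scale. Beyond a log2 difference of 1, 334 genes were higher in IL1b (2.1%) and 790 were lower (4.97%). The 15 genes with the largest difference toward TNF were all higher in TNF than in Control, and in IL1b 8 of them were above Control, 4 below and 3 not past the test. Of the 15 with the largest difference toward IL1b, 11 were below Control in TNF and 4 above, while in IL1b 7 were above Control, 5 below and 3 not past the test. The 2 sides are described by gene list, each count to be read against those background shares. Lists were made by function, and each member is 1 gene of the same 6 libraries.

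**Figure D1:**
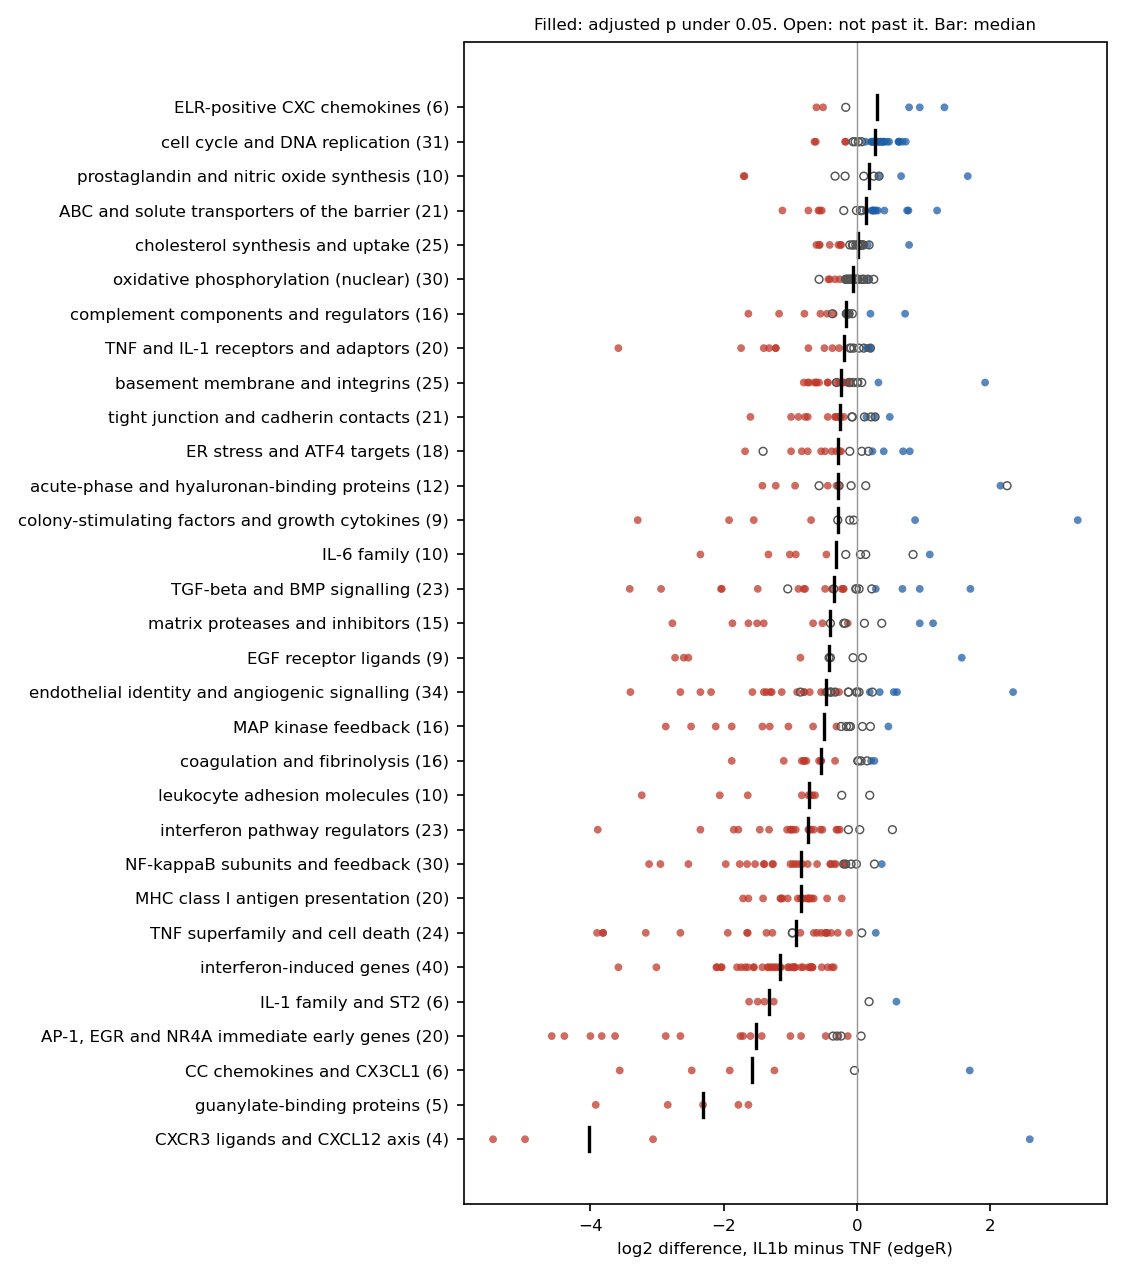
Log2 difference in expression between IL1b and TNF (x axis) for each tested member of 31 gene lists (rows, number of members tested in brackets), ordered by the list's median. Filled points passed an adjusted p of 0.05 in edgeR, open points did not, and bars are medians. The interferon-induced genes lie entirely left of 0, while most cell cycle genes lie right of it.

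Interferon-induced genes lay on 1 side of the comparison. All 40 interferon-induced genes measured were lower in IL1b than in TNF, with a median log2 difference of -1.15 against 0.012 for all genes and a range of -3.58 to -0.35. The same 40 of 40 were lower under relative log expression factors, under total-count scaling and with any 1 of the 6 libraries left out. Against Control, where 24% of all genes were higher in IL1b (22.6% lower) and 27.5% higher in TNF (25.3% lower), 37 of the 40 were higher in IL1b and all 40 in TNF. Most of these genes thus lay above Control in IL1b and higher still in TNF. The summed level of the list was 7790 to 7998 CPM in Control, 14163 to 15023 in IL1b and 30754 to 31198 in TNF.

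IFIT2, an antiviral protein that binds foreign RNA, measured 71.7, 74.7 and 73.8 CPM in the Control libraries, 1134, 1207 and 1170 in TNF and 156, 142 and 137 in IL1b. The libraries of the 2 cytokines did not overlap, as for 51.9% of all genes tested, and IL1b was lower than TNF by 8.06-fold (log2 difference -3.01, SE 0.094, adjusted p = 2.81e-12). IFIT3, its partner, measured 1741, 1871 and 1809 CPM in TNF and 437, 432 and 400 in IL1b. RSAD2, the antiviral enzyme viperin, gave 805 to 817 CPM in TNF against 177 to 195 in IL1b, and the translation enzyme WARS1 gave 437 to 456 against 103 to 115. Smaller differences were found for IFITM3, which blocks virus entry (mean 1150 CPM in TNF and 899 in IL1b, log2 difference -0.35), and for MX1, a GTPase against RNA viruses (3120 and 1612 CPM, log2 difference -0.95).

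Regulators of these genes lay on the same side. Of 30 ligands, receptors, kinases and transcription factors of the pathway, 23 were tested, and 20 were lower in IL1b and none higher. IRF1, an interferon regulatory factor that NF-kappaB induces, measured 40.5, 38.4 and 46.2 CPM in Control, 350, 393 and 384 in TNF and 75.9, 70.9 and 74.3 in IL1b (log2 difference -2.35, SE 0.14, adjusted p = 8.77e-08). STAT2, JAK2 and IRF7 had log2 differences of -0.96, -0.99 and -0.73, and NLRC5, a regulator of MHC class I genes, was at 256 to 277 CPM in TNF and 134 to 136 in IL1b. Interferon beta itself, IFNB1, was at 0.793 to 1.7 CPM in TNF and at 0 to 0.152 in IL1b, at or under 3 counts in every IL1b library, so no fold is given. The members not past the test were IRF3 (-0.13, adjusted p = 0.128), IFNLR1 (0.53, adjusted p = 0.125) and SOCS3 (0.04, adjusted p = 0.884), an inhibitor of cytokine receptors that stood at 143 CPM in TNF and 147 in IL1b.

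Guanylate-binding proteins, GTPases that attack intracellular microbes, were lower in IL1b in 5 of 5 tested, with a median of -2.31. GBP4 measured 272, 271 and 267 CPM in TNF, 18.4, 18.2 and 16.9 in IL1b and 4.78 to 6.39 in Control. GBP1, which marks interferon-treated endothelium, measured 1130 to 1150 CPM in TNF and 222 to 239 in IL1b. All 5 were above Control in both cytokine groups.

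MHC class I antigen presentation was lower in IL1b in 20 of 20 genes, median -0.84, and in 18 of 20 with total-count scaling. TAP1, which pumps peptides into the endoplasmic reticulum, measured 180, 167 and 163 CPM in Control, 812, 862 and 828 in TNF and 277, 271 and 261 in IL1b. B2M, the light chain, had means of 2025 CPM in Control, 3329 in TNF and 2032 in IL1b, and its difference between IL1b and Control did not pass the test (adjusted p = 0.94). The whole list was above Control in TNF (20 of 20), whereas in IL1b 12 members were above, 1 below and 7 not past the test. HLA genes share sequence, and reads could be split between them. CD74, the invariant chain of MHC class II, is outside this list and stood at 31.1 to 36.4 CPM in TNF, 0.842 to 1.72 in IL1b and 1.21 to 1.36 in Control.

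Chemokines lay on both sides of the comparison. CXCL10 and CXCL11, ligands of the T cell receptor CXCR3, had the largest differences toward TNF after OR2I1P among genes with a mean of at least 5 CPM in TNF. CXCL10 (gene on chromosome 4, 76021117 to 76023497, GENCODE 29) measured 0.416, 0.471 and 0.882 CPM in Control, 287, 308 and 285 in TNF and 7.96, 5.32 and 6.63 in IL1b, and CXCL11 measured 109 to 115 in TNF and 2.63 to 4.74 in IL1b. In IL1b both were above Control, CXCL10 by 3.49 and CXCL11 by 1.93 on the log2 scale. CXCL12, the ligand of CXCR4 that holds leukocytes at the vessel wall, went the other way. It measured 74.8, 68.7 and 72.6 CPM in Control, 19.3, 18 and 17.7 in TNF and 114, 107 and 109 in IL1b, so that IL1b lay above and TNF below the Control range. In cells of the series given C5a or epinephrine, mean CXCL12 was 105 and 149 CPM, against 72 in Control. CXCL9, CXCR3 and CXCR4 did not pass the filter.

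Of the CC chemokines and CX3CL1, 6 of 17 were tested, 4 were lower in IL1b and 1 was higher. CCL5, which draws T cells and monocytes, was at 149 to 163 CPM in TNF, 12 to 14.2 in IL1b and 7.53 to 9.51 in Control (log2 difference -3.56, SE 0.078, adjusted p = 8.15e-29). CX3CL1, a membrane-bound chemokine, was at 89.2 to 91.7 CPM in TNF and 15.1 to 17.9 in IL1b, and the monocyte chemokine CCL2 at 927 to 1095 and 250 to 277. CCL20, the ligand of CCR6, was also lower (log2 difference -1.24). CCL7, another monocyte chemokine, was higher in IL1b, with 4 to 4.85 CPM against 1.13 to 1.53 in TNF and at most 0.0551 in Control (log2 difference 1.69, SE 0.32, adjusted p = 4.81e-05).

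The ELR-positive CXC chemokines, which draw neutrophils through CXCR1 and CXCR2, held 3 members that were higher in IL1b. CXCL5 measured 1.92, 1.2 and 1.76 CPM in Control, 26, 28.2 and 26.1 in TNF and 72.1, 66.5 and 60.1 in IL1b (log2 difference 1.31, SE 0.088, adjusted p = 8.03e-15). CXCL1 measured 584, 727 and 654 CPM in TNF and 1277, 1249 and 1247 in IL1b (0.94, SE 0.1, adjusted p = 1.15e-05), and CXCL6 216 to 240 and 378 to 407 (0.78). No library of TNF reached the lowest of IL1b for these 3 genes. CXCL2 (-0.61, adjusted p = 0.0336) and CXCL8 (-0.51, adjusted p = 0.0344) were lower in IL1b. Of 15 alternatives, 6 kept the CXCL2 call and 5 the CXCL8 call. Both calls were lost on leaving out any 1 IL1b replicate and in the fit of only the 6 libraries. They were also lost with total-count scaling (adjusted p = 0.103 and 0.139) and without TNF replicate 2 (0.139 and 0.14). That library was the highest of TNF for all 6 genes of the family detected, against 35.7% of all genes tested, with 1975 CPM of CXCL8 against 1387 and 1569. CXCL3 had a log2 difference of -0.17 (adjusted p = 0.497), which turned to 0.09 without TNF replicate 2 and to 0.02 with total-count scaling. CXCL1, CXCL2 and CXCL3 are close copies, and how the counting treated reads that fit more than 1 of them is not given in the sources used here.

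**Figure D2:**
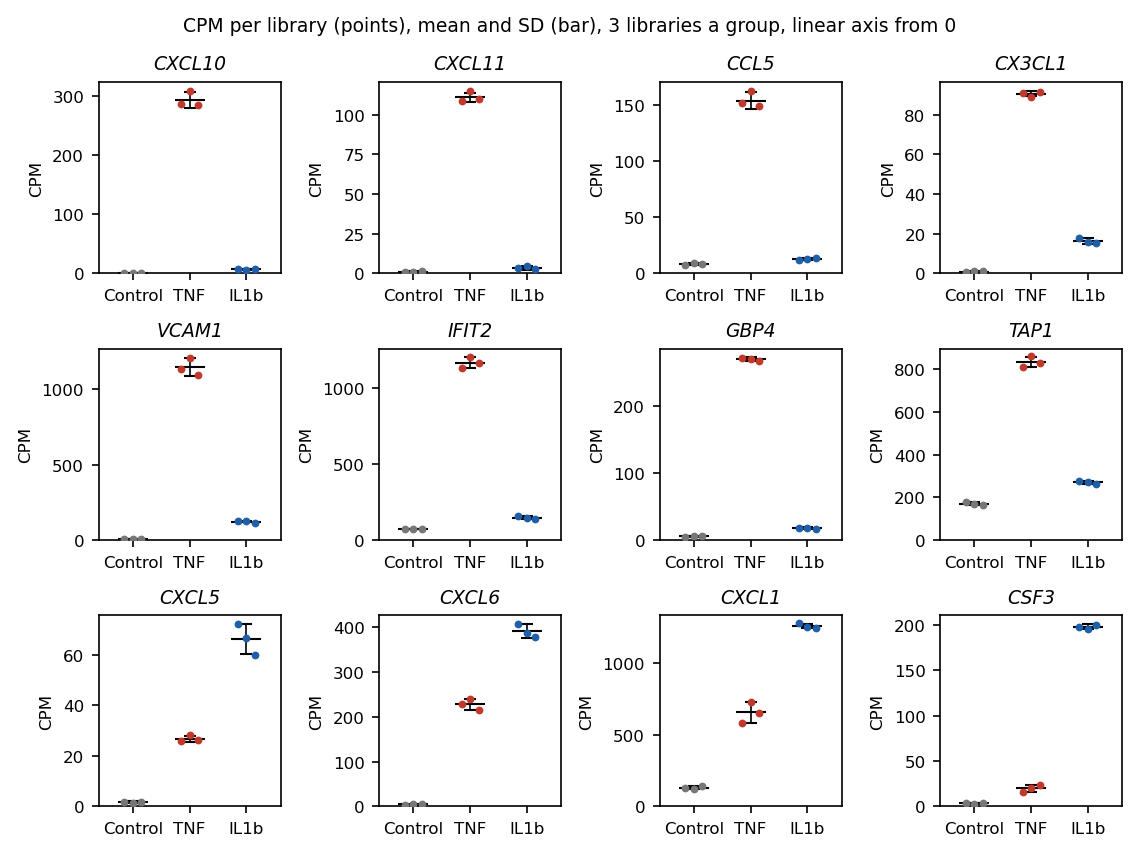
CPM (y axis, linear from 0) in each library of Control, TNF and IL1b for 12 chemokines, adhesion, interferon-induced and growth factor genes. Points are libraries, horizontal marks are means and error bars are SD over 3 libraries. CXCL10 to TAP1 are highest in TNF, and CXCL5, CXCL6, CXCL1 and CSF3 are highest in IL1b.

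Leukocyte adhesion molecules were lower in IL1b in 8 of 10 tested, with none higher and a median of -0.72. VCAM1, the endothelial ligand of the integrin VLA-4, measured 7.22, 6.17 and 8.82 CPM in Control, 1131, 1209 and 1095 in TNF and 125, 126 and 114 in IL1b, a 9.4-fold difference (log2 -3.23, SE 0.2, adjusted p = 1.53e-07). ICAM1, the ligand of LFA-1, measured 1240 to 1369 CPM in TNF, 309 to 314 in IL1b and 134 to 144 in Control. E-selectin, SELE, on which leukocytes roll, measured 10.2 to 10.8, 2.63 to 3.95 and 0.105 to 0.26. These 3 inducible molecules were above Control in both groups. CD34 and F11R, present before stimulation, were above Control in TNF (log2 TNF minus Control 0.21 and 0.35) and below it in IL1b (log2 IL1b minus Control -0.62 and -0.34). In cells of the series given C5a or epinephrine, mean CD34 was 74.4 and 64.4 CPM, against 97.5 in Control. Mean F11R was 44.7 and 53.6 CPM there, against 60.2 in Control. MADCAM1 (-0.23, adjusted p = 0.691) and JAM3 (0.19, adjusted p = 0.158) did not pass the test.

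NF-kappaB subunits and feedback genes were lower in IL1b in 24 of 30, with 1 higher and a median of -0.84. TNFAIP3, the A20 enzyme that shuts off both receptor pathways, measured 66.3, 53 and 71.8 CPM in Control, 1216, 1603 and 1368 in TNF and 192, 175 and 176 in IL1b (log2 -2.95, SE 0.19, adjusted p = 2.2e-07). TRAF1 measured 366 to 379 CPM in TNF and 41 to 44.6 in IL1b, and the ubiquitin ligase BIRC3 634 to 703 and 111 to 118. NFKBIA, which codes for the inhibitor IkappaB alpha, stood at 705 to 868 CPM in TNF and at 263 to 278 in IL1b, just under the lowest Control library at 279 (IL1b minus Control -0.16, adjusted p = 0.271). The subunits NFKB2 and RELB of the alternative pathway were lower in IL1b (log2 differences -1.65 and -1.76) and above Control in both groups. Against Control, 26 members were higher in TNF and 19 in IL1b, none lower in either.

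Of the receptor chains that bind the 2 cytokines, TNFRSF1B had the largest difference (-0.73, adjusted p = 5.86e-14). TNFRSF1A, the main TNF receptor, was higher in IL1b by 0.14 (293, 283 and 287 CPM against 255, 257 and 271, adjusted p = 0.0101), a call lost without IL1b replicate 1 (adjusted p = 0.0514) or TNF replicate 1 (0.0553). IL1R1 measured 38, 36.7 and 37 CPM in TNF and 34.1, 35.2 and 33.9 in IL1b, with a difference that did not pass the test (-0.11, SE 0.081, adjusted p = 0.279) and was 0.08 with total-count scaling. IL1RAP had a difference of 0.03 (SE 0.07, adjusted p = 0.753). Both interleukin 1 receptor chains were above Control in both groups, by 0.80 and 0.58 in IL1b and by 0.92 and 0.55 in TNF. Of 20 tested receptors, antagonists and adaptors, 10 were lower in IL1b and 4 higher (9 and 7 with total-count scaling). Adaptors of both routes were among the lower ones, with MYD88 at 267 to 271 CPM in TNF and 112 to 117 in IL1b, IRAK2 at 149 to 154 and 56.4 to 60.5, and TRADD at 69.2 to 72.9 and 26.2 to 29.8. TRADD in IL1b lay below its Control range of 32 to 35 CPM, as did its means in cells given C5a (27.1) and epinephrine (27.4).

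TNF superfamily and cell death genes were lower in IL1b in 20 of 24, with 1 higher and a median of -0.91. TNFSF18, the ligand of GITR on T cells, measured 2.23, 3.76 and 3.47 CPM in Control, 110, 120 and 111 in TNF and 7.96, 8.24 and 6.58 in IL1b. TNFSF13B, the B cell factor BAFF, measured 76.9 to 88.6 CPM in TNF and 8.53 to 9.54 in IL1b, and lymphotoxin beta, LTB, 29.8 to 35.2 and 1.93 to 2.74. TNFSF10, the death ligand TRAIL, measured 263 to 283 CPM in TNF and 38.1 to 48.2 in IL1b. The receptor TNFRSF9, known as 4-1BB, was at 18.2 to 19.6 and 1.12 to 1.67 CPM. CFLAR, which blocks caspase 8, was also lower in IL1b (mean 386 CPM in TNF and 124 in IL1b, log2 difference -1.64), so genes that promote and genes that restrain cell death lay on the same side. TNFRSF10D, a decoy receptor of TRAIL, was higher in IL1b by 0.28, a call that was lost without TNF replicate 2.

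Growth factors for leukocytes were divided. CSF3, the granulocyte factor G-CSF (chromosome 17, 40015361 to 40017813), measured 3.53, 3.14 and 4.24 CPM in Control, 16.1, 20.3 and 23.1 in TNF and 198, 195 and 200 in IL1b, a 9.92-fold difference and the largest toward IL1b among the named genes. CSF2, the factor GM-CSF, was higher in IL1b by 0.87 (14.5, 26.5 and 17.6 CPM against 37, 37.1 and 34.1, adjusted p = 0.0265). Among other settings, this call was lost in DESeq2 (adjusted p = 0.0828) and on leaving out TNF replicate 1 (0.0916), TNF replicate 3 (0.0865), IL1b replicate 1 (0.0694) or IL1b replicate 2 (0.0693). CSF1, the macrophage factor, was lower in IL1b (651 to 694 CPM in TNF and 225 to 238 in IL1b), as were the other ligand of its receptor, IL34 (5.04 to 5.52 and 0.469 to 0.632), and IL15, which sustains T and NK cells (10.4 to 12.1 and 2.26 to 3.28). IL34 and IL15 did not differ from Control in IL1b by the test (adjusted p = 0.787 and 0.379). TSLP had a difference of -0.29 (adjusted p = 0.0679).

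In the interleukin 6 family, 5 of 10 tested genes were lower in IL1b and 1 was higher. IL6 measured 293, 435 and 347 CPM in TNF and 186, 174 and 174 in IL1b, against 34.1 to 51 in Control. LIF was at 451 to 597 CPM in TNF, 100 to 104 in IL1b and 56.6 to 68.7 in Control. IL6R, the receptor chain specific for interleukin 6, was the higher one (log2 1.09, SE 0.058, adjusted p = 1.3e-17). It was at 75.5 to 77.6 CPM in IL1b, 34.3 to 37.2 in TNF and 60.1 to 63.3 in Control. Mean IL6R was 86.6 CPM in C5a cells and 65 in epinephrine cells. In the interleukin 1 family IL1A and IL1B were lower in IL1b (log2 differences -1.62 and -1.39), with IL1B at 130 to 139 CPM against 297 to 416 in TNF and 14.3 to 22.4 in Control. IL1RL1, the receptor of interleukin 33 called ST2, was higher in IL1b by 0.59 (14.3 to 16 CPM against 8.57 to 11.7, adjusted p = 0.00103).

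Several acute-phase products stood close together in the 2 groups. TNFAIP6, a hyaluronan-binding protein, measured 37.9, 44.1 and 42.7 CPM in TNF and 51, 42.8 and 43.2 in IL1b, with overlapping groups (0.13, SE 0.14, adjusted p = 0.465) and at most 0.312 CPM in Control. Serum amyloid SAA1 was lower in IL1b (log2 difference -0.27, 82 to 85.7 CPM in TNF and 65.9 to 74.2 in IL1b, adjusted p = 0.0122), and SAA2 did not pass the test (-0.09, adjusted p = 0.567). The SAA1 call was lost with total-count scaling (-0.08, adjusted p = 0.47) and without IL1b replicate 2 (0.0707), IL1b replicate 3 (0.059) or TNF replicate 2 (0.0517). SAA1 and SAA2 share most of their sequence, so their split is uncertain. The pentraxin PTX3 (2498 to 2671 and 1355 to 1390 CPM) and the mitochondrial dismutase SOD2 (8711 to 9152 and 3790 to 3915 CPM) were lower in IL1b. In all, 6 of 12 tested members were lower and 1 higher, a called share of 58.3% against 41.4% of all genes. Differences in the list ran from -1.42 to 2.25, and with total-count scaling 3 were lower and 3 higher. Among complement genes 7 of 16 were lower and 2 higher (5 and 3 with total-count scaling). C1S was at 231 to 247 CPM in TNF and 103 to 111 in IL1b. C5 was among the higher ones (0.72), and TNF lowered it from 13.1 to 14 CPM in Control to 4.93 to 6.16.

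Prostaglandin genes lay partly on the IL1b side. PTGS2, the inducible cyclooxygenase, measured 0.987, 0.889 and 1.1 CPM in Control, 9.09, 10.5 and 9.35 in TNF and 31, 29 and 31.7 in IL1b (log2 1.66, SE 0.14, adjusted p = 1.11e-12). PTGES, the synthase that works with it, had a difference of 0.33 that did not pass the test (adjusted p = 0.0823), while PTGES2 (0.33) and the prostacyclin synthase PTGIS (0.66) were higher in IL1b. GCH1, which makes the cofactor of nitric oxide synthases, was lower (216 to 226 CPM in TNF and 67.1 to 69.5 in IL1b). Of 10 tested members 3 were higher and 2 lower, and without TNF replicate 2 the higher ones were 6.

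Immediate early genes, transcription factors that are switched on within minutes and whose RNAs are short-lived, also separated the cytokines at 12 h. Of 20 members, 16 were lower in IL1b and none higher, with a median of -1.51. In TNF 15 were above Control and none below, and in IL1b 5 were above and 10 below. The orphan receptor NR4A2 measured 118, 104 and 107 CPM in Control, 228, 310 and 245 in TNF and 11.1, 11.5 and 10.3 in IL1b (log2 -4.58, SE 0.15, adjusted p = 3.07e-11). Its relative NR4A1 measured 179 to 196 CPM in Control, 227 to 256 in TNF and 16.1 to 18.3 in IL1b, and NR4A3 followed the same order. ATF3, a stress-induced repressor, measured 272, 189 and 220 CPM in Control, 677, 969 and 723 in TNF and 49.2, 45.7 and 53.1 in IL1b. The small MAF protein MAFF was at 358 to 398 CPM in TNF and 47.8 to 55.7 in IL1b. The members not past the test were FOS (-0.24, adjusted p = 0.697), JUN (-0.36, adjusted p = 0.173), EGR1 (0.06, adjusted p = 0.783) and EGR2 (-0.30, adjusted p = 0.796).

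The list was also measured in 2 further groups of the series. In the 3 libraries of cells given C5a at 50 ng/mL, 13 of the 20 genes lay below every Control library, against 19.4% of all genes tested, with NR4A2 at a mean of 4.86 CPM and ATF3 at 36.9. In the 3 libraries given epinephrine at 200 nM, 2 of the 20 lay below every Control library, against 16.7% of all genes tested, with NR4A2 at 96.5 CPM and ATF3 at 349. The list summed to 3293 to 3450 CPM in IL1b and 3471 to 4506 in Control. In TNF it summed to 6639, 9049 and 7348 CPM, and TNF replicate 2 held the highest value of its group for 17 of the 20 genes, against 35.7% of all genes tested. Without that library 16 members were still lower in IL1b, and ATF3 had a log2 difference of -3.83.

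MAP kinase feedback genes, phosphatases and Sprouty proteins that damp the ERK pathway, were lower in IL1b in 9 of 16, with 1 higher. TNF replicate 2 held the highest TNF value for 10 of the 16, against 35.7% of all genes tested, and the list summed to 3618, 4551 and 3954 CPM in TNF. DUSP5, the nuclear ERK phosphatase, measured 1153, 1023 and 1104 CPM in Control, 1657, 1914 and 1826 in TNF and 336, 312 and 310 in IL1b. SPRY4 measured 42.7 to 50.9 CPM in Control, 77.3 to 97.3 in TNF and 10.7 to 12.3 in IL1b. DUSP10, which acts on JNK and p38, was above Control in both groups, by 2.59 in TNF and 0.71 in IL1b. Of 9 tested ligands and receptors of the EGF family, 4 were lower in IL1b (HBEGF, EREG, BTC and the receptor EGFR) and 1 was higher, the receptor ERBB3 (1.57, with 0.28 CPM in TNF and 0.867 in IL1b). The ligand HBEGF was at 211 to 230 CPM in TNF, 31.2 to 33.6 in IL1b and 68.4 to 76.2 in Control, and EREG at 15.9 to 29.2, 2.87 to 4.58 and 1.25 to 2.29. AREG had a difference of 0.08 (adjusted p = 0.614) that was -0.03 without TNF replicate 1. In C5a cells the means were 7.75 CPM for SPRY4, 254 for DUSP5 and 22 for HBEGF. In epinephrine cells they were 58.7, 912 and 86.8 CPM.

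**Figure D3:**
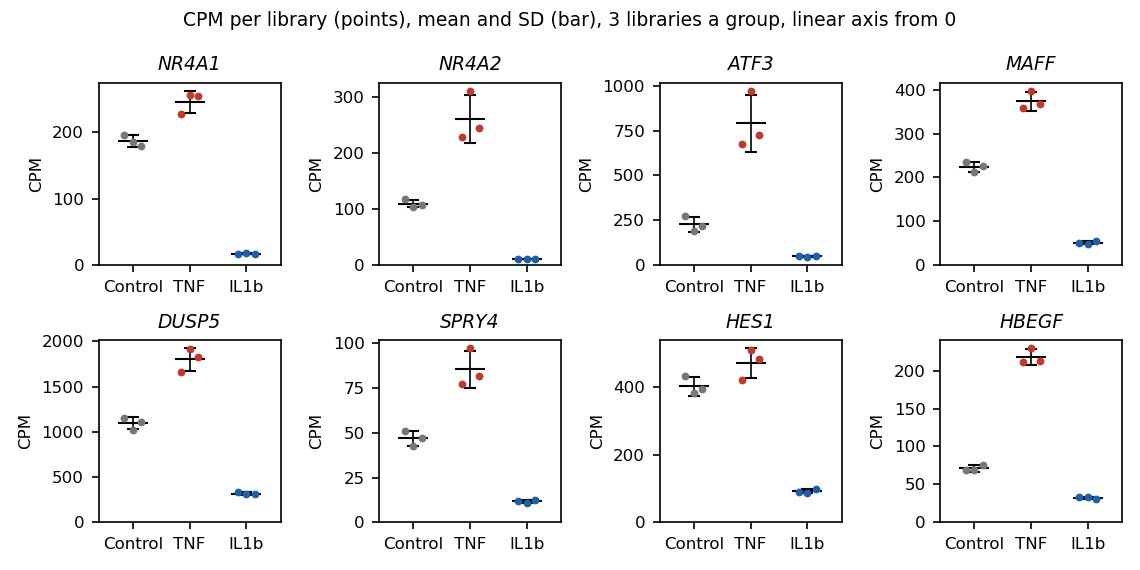
CPM (y axis, linear from 0) in each library of Control, TNF and IL1b for 8 immediate early, MAP kinase feedback, Notch target and EGF receptor ligand genes. Points are libraries, horizontal marks are means and error bars are SD over 3 libraries. For all 8 genes every IL1b library lies below every Control and TNF library.

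Some genes of the Notch and bone morphogenetic protein pathways had large differences toward TNF. HES1, a repressor induced by Notch, measured 434, 382 and 394 CPM in Control, 421, 510 and 484 in TNF and 91.1, 87 and 100 in IL1b. Its mean was 90 CPM in C5a cells and 331 in epinephrine cells. HEY1, another Notch target, was at 9.22 to 11.7 CPM in TNF and 0.632 to 1.41 in IL1b, and the Notch ligand JAG1 at 217 to 235 and 90.4 to 93.1. ID2 and ID3, inhibitors of differentiation that bone morphogenetic proteins induce, were lower in IL1b (log2 differences -3.41 and -2.04). ID3 was at 434 to 472 CPM in TNF, 105 to 114 in IL1b and 190 to 220 in Control. Mean ID3 was 119 CPM in C5a cells and 358 in epinephrine cells. INHBA, the subunit of activin A, was at 317 to 375 CPM in TNF and 42.7 to 46.4 in IL1b. SMAD6, an inhibitor of the same pathway, was on the other side at 8.08 to 9.21 CPM in IL1b and 2.1 to 3.6 in TNF, as was the ligand BMP6 (0.94). Of 23 genes of the TGF-beta and BMP list, 13 were lower and 4 higher (10 and 7 with total-count scaling).

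Endothelial identity genes were lower in IL1b in 18 of 34 and higher in 5. The Krüppel-like factor KLF4 measured 186 to 289 CPM in TNF, 46.4 to 53.5 in IL1b and 99.5 to 150 in Control. Mean KLF4 was 31.3 CPM in C5a cells and 97.2 in epinephrine cells. The flow-responsive KLF2 did not pass the test (-0.39, adjusted p = 0.174). The transcription factor ETS1 was at 529 to 540 CPM in TNF and 200 to 204 in IL1b, VEGFC, which drives lymphatic growth, at 105 to 109 and 35.4 to 38.1, and endothelin, EDN1, at 180 to 196 and 75 to 77.6. VEGFA had means of 98.5 CPM in TNF and 98.1 in IL1b (-0.01, adjusted p = 0.928). SOX18, a factor of vessel development, was higher in IL1b (2.05 to 2.69 CPM against 0.158 to 0.85), and its IL1b level did not differ from Control by the test (adjusted p = 0.189).

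The genes with the largest differences toward IL1b included several that were below Control in TNF. PTCH1, the Hedgehog receptor, measured 53.5, 48.2 and 51.9 CPM in Control, 12.7, 14.6 and 11 in TNF and 55.4, 54.3 and 58.4 in IL1b, with no difference past the test between IL1b and Control (0.13, adjusted p = 0.123). PODN, a matrix proteoglycan, was at 5.73 to 7.71 CPM in TNF, 18.1 to 19.1 in Control and 29.2 to 32.2 in IL1b. Mean PODN was 26.1 CPM in C5a cells and 21 in epinephrine cells, against 18.6 in Control. ITGB4, the integrin chain of hemidesmosomes, PPL, the cytolinker periplakin, and MDFI, an inhibitor of myogenic factors, were below Control in both groups and further below in TNF. ITGB4 measured 54.9 to 64.2 CPM in Control, 6.79 to 10.4 in TNF and 29.1 to 32.7 in IL1b, and PPL 39.8 to 48, 4.19 to 6.8 and 17.1 to 17.4. KRT80, a keratin, had a difference of 0.07 between IL1b and Control (adjusted p = 0.342) and fell by 1.49 in TNF on the log2 scale. MT1X, a metal-binding metallothionein with close copies in the genome, and DIO2, the enzyme that activates thyroid hormone, were above Control in both groups and higher in IL1b, MT1X at 10.4 to 11.6 CPM against 3.16 to 4.06 and DIO2 at 4.46 to 5.99 against 0.947 to 2.62.

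**Figure D4:**
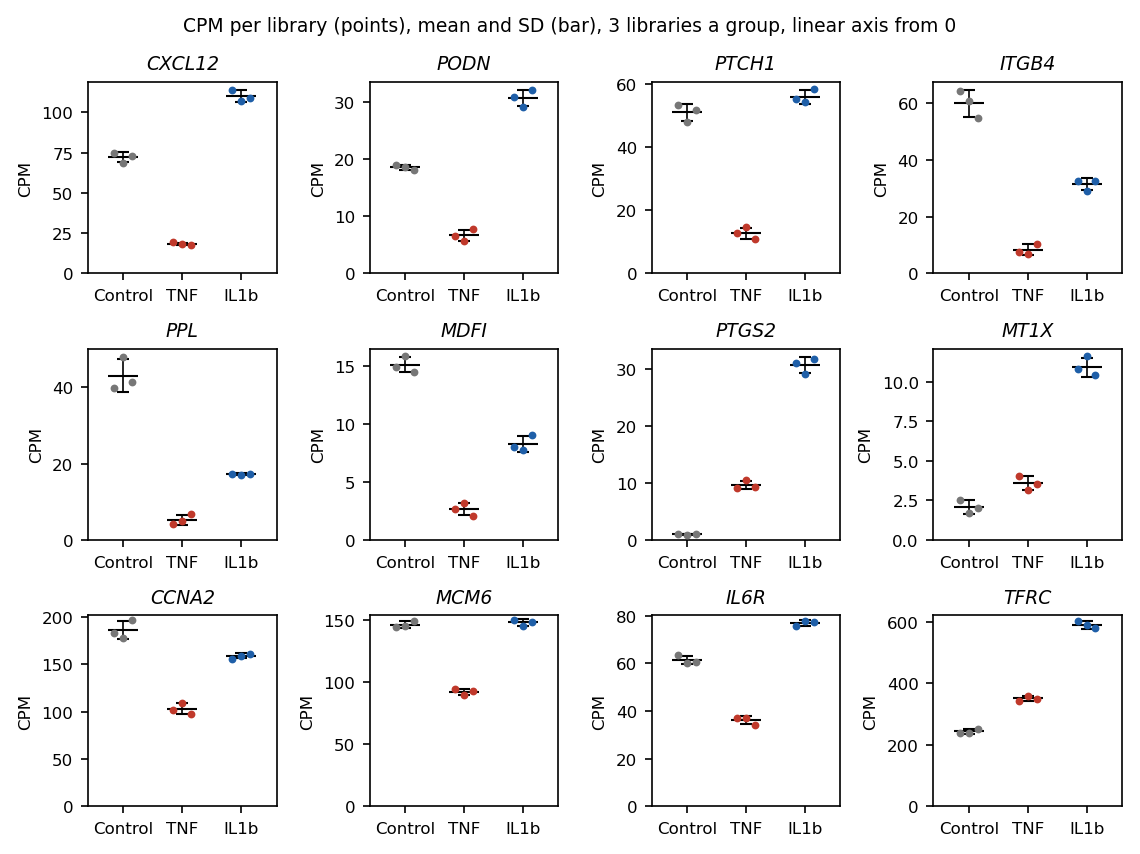
CPM (y axis, linear from 0) in each library of Control, TNF and IL1b for 12 genes that were higher in IL1b than in TNF. Points are libraries, horizontal marks are means and error bars are SD over 3 libraries. CXCL12 and PODN lie above Control in IL1b and below it in TNF, while ITGB4, PPL, MDFI and CCNA2 lie below Control in both groups.

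Cell cycle genes were higher in IL1b in 22 of 31, with 4 lower and a median of 0.27. Against Control, 26 of the 31 were lower in TNF and 2 higher, and 18 were lower in IL1b and 3 higher. MCM6, part of the helicase that opens replication origins, measured 144, 145 and 149 CPM in Control, 94.1, 89.7 and 92.4 in TNF and 150, 145 and 148 in IL1b (log2 0.68, SE 0.047, adjusted p = 1.26e-14). Cyclin A2, CCNA2, measured 178 to 197 CPM in Control, 97.9 to 109 in TNF and 156 to 161 in IL1b, and the topoisomerase TOP2A 878 to 912, 510 to 569 and 794 to 844. The 4 lower genes were CCND1 (-0.62), CDKN1A (-0.64), CDK2 (-0.18) and BUB1 (-0.17). Cyclin D1, which drives entry into the cycle, had mean levels of 79.7 CPM in Control, 170 in TNF and 111 in IL1b, and the inhibitor CDKN1A was at 439 to 450, 350 to 371 and 226 to 239. Mean CDKN1A was 244 CPM in C5a cells and 293 in epinephrine cells. With total-count scaling 27 genes of the list were higher and 2 lower.

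Tight junction and cadherin genes were lower in IL1b in 13 of 21 and higher in 3. Claudin 1, CLDN1, a barrier-forming claudin, measured 40.2 to 45 CPM in Control, 499 to 526 in TNF and 161 to 172 in IL1b. VE-cadherin, CDH5, the adherens junction protein of endothelium, measured 269, 255 and 267 CPM in Control and 416, 406 and 432 in TNF. In IL1b it measured 217, 204 and 210 CPM, so the groups lay on opposite sides of Control. Its mean was also below the Control mean of 264 CPM in C5a cells (215) and epinephrine cells (194). Claudin 5, CLDN5, the main claudin of brain endothelium, fell by 1.26 in TNF and by 1.53 in IL1b on the log2 scale, and the 2 groups differed by -0.26 (adjusted p = 0.0297). That call was lost with total-count scaling (-0.07, adjusted p = 0.575) and without IL1b replicate 1 (0.061), IL1b replicate 2 (0.162) or TNF replicate 3 (0.166). Mean CLDN5 was also below the Control mean of 46.7 CPM in C5a cells (19.1) and epinephrine cells (25.2). The platelet adhesion molecule PECAM1 was higher in IL1b by 0.27. CLDN14 lies outside the list and stood at 89.1 to 112 CPM in TNF, 4.74 to 5.53 in IL1b and 14.5 to 16.4 in Control. Its mean was 2.22 CPM in C5a cells and 15.1 in epinephrine cells. With total-count scaling 7 members of the list were lower and 6 higher.

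Barrier transporters lay on the IL1b side more often, with 11 of 21 higher and 5 lower. TFRC, the transferrin receptor that carries iron across the barrier, measured 240, 239 and 253 CPM in Control, 344, 360 and 348 in TNF and 604, 589 and 579 in IL1b (log2 0.75, SE 0.045, adjusted p = 2.05e-16). MFSD2A, a lipid transporter of brain endothelium, was at 12.6 to 14.7 CPM in IL1b and 6.8 to 9.78 in TNF. The efflux pumps ABCB1 (P-glycoprotein) and ABCG2 were lower in IL1b, ABCB1 at 182 to 194 CPM against 259 to 279 in TNF and 209 to 220 in Control. Mean ABCB1 was 181 CPM in C5a cells and 186 in epinephrine cells. ABCG2 was at 8.42 to 8.91 CPM in IL1b and 12 to 13.8 in TNF, where it did not differ from Control by the test (0.05, adjusted p = 0.75).

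Coagulation genes were lower in IL1b in 10 of 16 and higher in 2 (9 and 5 with total-count scaling). Tissue factor, F3, which starts clotting, measured 11.6, 10.6 and 12 CPM in Control, 41.1, 44.5 and 49.2 in TNF and 12.3, 12.5 and 11.8 in IL1b, where it did not differ from Control by the test (0.10, adjusted p = 0.485). Among matrix proteases and inhibitors 8 of 15 were lower and 2 higher. TIMP3, an inhibitor bound to the matrix, was at 223 to 233 CPM in TNF, 72.7 to 76.1 in IL1b and 106 to 117 in Control. Its mean was 83.5 CPM in C5a cells and 116 in epinephrine cells. The gelatinase MMP2 was higher in IL1b than in TNF (15.2 to 15.7 CPM against 6.8 to 8.73) and below Control in both groups. Of 25 basement membrane and integrin genes, 16 were lower in IL1b, none by more than 1, and 2 were higher (ITGA1 and ITGB4). With total-count scaling 10 were lower and 6 higher. The largest difference toward TNF was in the fibronectin receptor chain ITGA5, at 942 to 964 CPM in TNF and 534 to 555 in IL1b.

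Metabolic lists depended on the scaling. Of 30 nuclear genes of oxidative phosphorylation 4 were lower in IL1b and 1 higher, a called share of 16.7% against 41.4% of all genes, and with total-count scaling 1 was lower and 13 higher. Of 25 cholesterol genes 7 were lower and 2 higher, and with total-count scaling 4 were lower and 16 higher. LSS, lanosterol synthase, had the largest difference of the lower ones shown (-0.61, SE 0.047), with 282 to 300 CPM in TNF and 185 to 203 in IL1b, where the Control range was 188 to 193. Endoplasmic reticulum stress genes were lower in 10 of 18 and higher in 4 (7 and 5 with total-count scaling). XBP1, a factor of the unfolded protein response, was at 202 to 223 CPM in TNF and 118 to 131 in IL1b. PPP1R15A, which reverses the translation block, was at 173 to 247 CPM in TNF and 63.5 to 72.2 in IL1b. Its IL1b values lay below the Control range of 156 to 189 CPM. The PPP1R15A mean was 61.2 CPM in C5a cells and 186 in epinephrine cells.

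The same 2 cytokines were compared once more through extracellular vesicles. In 6 other libraries, cells received vesicles enriched from the supernatants of TNF-stimulated or interleukin 1 beta-stimulated cells (EV-TNF and EV-IL1b). There 1 of 15918 genes passed the test (0.00628%), HSPA5, with 894, 914 and 924 CPM in EV-TNF and 1072, 984 and 997 in EV-IL1b. At an unadjusted p of 0.05 the number was 978 (6.14%), and DESeq2 called 0. Of 198 named genes tested in both settings, none was called between the vesicle groups, where their differences ran from -0.99 to 0.58 against -5.46 to 3.31 between the direct groups. The direct difference minus the vesicle difference passed the test for 176 of those 198 genes and for 4885 of 16691 genes in all (29.3%). Most named genes were chosen for a large direct difference, so neither the 176 nor the wider direct range is independent of that choice. CXCL12, for example, measured 57.4, 56.2 and 60.9 CPM in EV-TNF and 52.1, 57.2 and 58.4 in EV-IL1b.

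**Figure D5:**
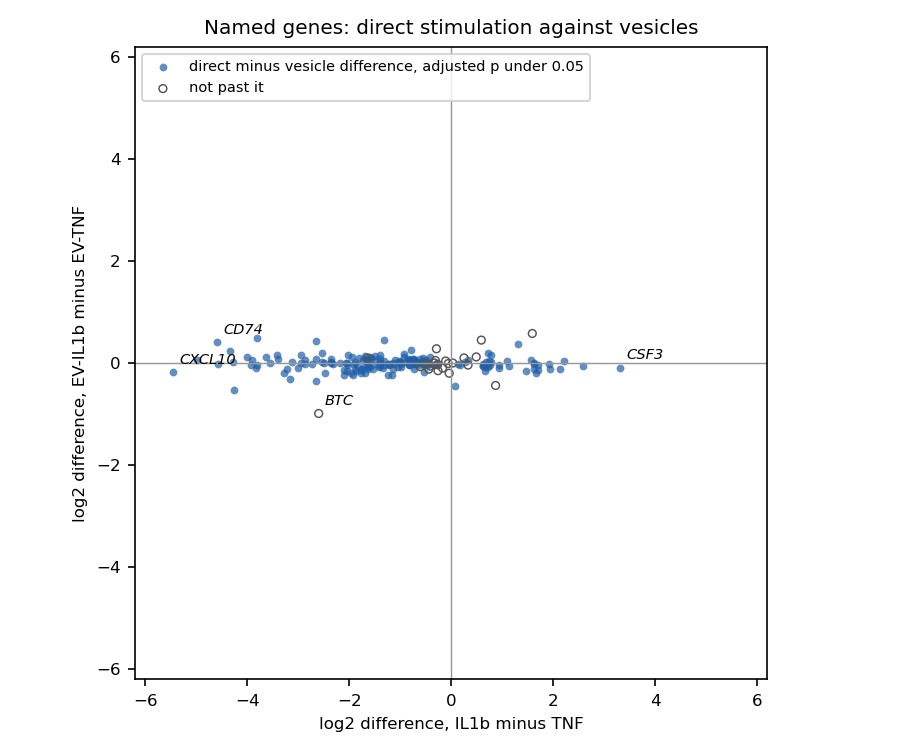
Log2 difference between interleukin 1 beta and TNF for 198 named genes after direct stimulation (x axis, IL1b minus TNF) and with vesicles (y axis, EV-IL1b minus EV-TNF). Filled points are the 176 genes whose 2 differences differed from each other at an adjusted p of 0.05 in edgeR. Direct differences span -5.46 to 3.31 and vesicle differences -0.99 to 0.58, and most genes were chosen for a large direct difference.

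Some named genes overlap others on the opposite strand in GENCODE 29, among them CLDN14, GBP4, NR4A1, PODN, PTCH1 and DIO2. Whether counting used the strand is not given in the sources used here, so reads of such pairs cannot be told apart. OR2I1P, an olfactory receptor gene that overlaps UBD and GABBR1 in this way, met the rule for the largest differences, with 4.58 to 7.08 CPM in TNF and 0 to 0.158 in IL1b. At a floor of 3 counts per library (0.158 CPM), it was at least 37.9-fold higher in TNF than in IL1b.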

How the data were processed

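RNA of hCMEC/D3 cells was sequenced in 30 libraries, 3 in each of 10 groups. The values used are raw read counts per gene in the table the authors deposited. Per the submitters' processing notes, STAR, FastQC, DESeq2, R 4.4.1 and the build hg38 were used. The read counter, its strand setting and the annotation release are not given in the sources used here. Of 63147 lines, 4 had no gene ID (0.00079% to 0.0016% of counts) and were left out, with 2 broken records and 3 repeated IDs, leaving 63138 genes. Positions and overlaps are from GENCODE 29 and promoters from RefSeq on GRCh38.p14. A table of protein sequences was not used here, and a few genes are not reported here.

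Counts of the 15 libraries of direct stimulation were fitted with edgeR 4.0.16 in R 4.3.3 (filterByExpr, TMM factors, robust quasi-likelihood fit, Benjamini-Hochberg adjustment at 0.05), without covariates. The vesicle groups were fitted the same way, and the direct minus vesicle difference in a fit of all 30 libraries. CPM are counts over library size times factor. On simulated data for IL1b against TNF with 15691 genes, 99 of 100 changes of 1 and 100 of 100 of 2 on the log2 scale were recovered, with 10 false calls. The simulation gave every gene the same spread. It changed few genes, all above a count floor, with rises and falls in equal number. The real comparison differs in these points, so the simulation does not bear on the choice of scaling.

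Named genes were the 15 with the largest difference in each direction (at least 5 CPM in the higher group, adjusted p under 0.05, no overlap between libraries), up to 6 members of each list by size of difference, and a short set of known endothelial genes. Others in the text are list or marker members, some chosen after their values were seen. Members and lists were chosen with earlier results of these data known. Alternatives were DESeq2 1.42.0, other scaling factors, filters and sets of libraries, a replicate block, and leaving out each replicate.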

Additional observations from a re-analysis of the deposited data

Results flagged for a closer look

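The difference between interleukin 1 beta and TNF depended on whether cells met the cytokine or the vesicles, by edgeR's test of the direct difference minus the vesicle difference, for 4885 of 16691 genes (29.3%). CSF3 had a direct minus vesicle difference of 3.40 on the log2 scale (adjusted p = 3.47e-05), with means of 2.88 CPM in EV-TNF and 2.72 in EV-IL1b. For CXCL12 it was 2.63 (adjusted p = 1.46e-34), with 58.2 and 55.9 CPM. PODN gave 2.16 (adjusted p = 9.11e-18), with 12.6 and 13 CPM. CXCL10 gave -5.29 (adjusted p = 1.62e-09) and CXCL11 -5.06 (adjusted p = 1.79e-19), both under 2 CPM in every library of the 2 vesicle groups. These 5 genes were singled out for the size of their direct difference, so the direct side of each value was chosen for being large.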

How the results depend on the processing

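Of 202 named genes, 178 kept their direction and side of the threshold in every alternative that could test them, and 24 did not. Total-count scaling gave 6504 genes higher and 2041 lower in IL1b than in TNF. Requiring a difference above 1 on the log2 scale left 1124 genes, 334 higher and 790 lower. Leaving out 1 replicate gave 2733 to 2876 higher and 3048 to 3151 lower. The replicate numbers did not pair the libraries (correlations of same-numbered deviations -0.0314, -0.0175 and 0.0254), and a replicate block gave 6533 genes, 3147 higher and 3386 lower. Between the vesicle groups, against 1 gene, DESeq2 gave 0, no low-count filter 23, the replicate block 3, total-count scaling 3 and leaving out a replicate 0 to 3. Directions turned, none past the threshold before, for CCL28 (0.15 with total-count scaling, 0.05 without TNF replicate 2, 0.00 without IL1b replicate 3), CXCL3 (0.02 with total-count scaling, 0.09 without TNF replicate 2), ERBB2 (0.13) and IL1R1 (0.08) with total-count scaling, AREG without TNF replicate 1 (-0.03) and IL1RAP without TNF replicate 3 (-0.01). Over all replicates left out in turn these ranged from -0.03 to 0.22 (AREG), -0.09 to 0.05 (CCL28), -0.31 to 0.09 (CXCL3) and -0.01 to 0.06 (IL1RAP). The cause was not tested. Genes near 3 counts in a library, such as IFNB1 in IL1b, are limited by depth.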
